A study of Mus musculus with 20 samples.

Results

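Foxp1, Foxo1 and Foxo3 encode forkhead transcription factors of T cells. The binding regions assigned to these 3 genes were 25 of the 22081 distinct regions that the series lists, with 18 at Foxp1, 4 at Foxo1 and 3 at Foxo3. A region belonged to a gene when that protein-coding gene was the nearest to its centre, at distance 0 inside the gene and at most 100 kb away. Regions with identical chromosome, start and end were counted as 1. The genes were chosen with earlier counts from the same lists known, in which Foxp1 led, so the counts by class below are a description, and no test was run on them.

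The series used chromatin immunoprecipitation and sequencing (ChIP-seq) to map the zinc-finger factor Bcl11b and the Treg-defining factor Foxp3 in sorted CD4+ T cells of C57BL/6 mice, from lymph nodes and spleen. Foxp3 was precipitated in 2 libraries from Bcl11b-KO Treg cells (Bcl11b f/f Foxp3-IRES-YFP-Cre, CD4+YFP+) and in 2 libraries from WT Treg cells (Foxp3-IRES-YFP-Cre, CD4+YFP+). Bcl11b was precipitated in 2 libraries from KIKO cells (Foxp3-GFPKO, CD4+GFP+, labelled as Treg cells without Foxp3), in 3 libraries from WT Treg cells, and in 3 libraries from WT Tn cells (Foxp3-IRES-YFP-Cre). Input DNA made up 8 further libraries of 20. YFP-Cre is expressed from the Foxp3 gene, so deletion of Bcl11b is limited to cells that have expressed Foxp3, and the WT cells carry the same Cre allele. Tn is not spelled out in the labels, which describe both Tn and Treg cells as sorted on CD4 and YFP, and no ages are stated there.

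The deposited data are 12 lists of region positions in mm10, 3 for each of 4 comparisons of 2 region sets. A region is listed as specific to either set or as common to both. The lists carry no score and no value per replicate, so the depth behind a call is unknown and spread between replicates could not be measured. RNA was not measured in these lists, and the identity of the cells could not be checked by expression. Of the loci of cell type markers, Il2ra had 8 regions, Ikzf2 had 6, and Foxp3 and Cd4 had 1 each, while Cd8a and Lyz2 had none.

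Forkhead factors bind DNA through a winged-helix domain. Foxp1 is known to keep naive T cells quiescent and to restrain the IL-7 receptor gene, and in Treg cells it binds many of the sites of its relative Foxp3. Foxo1 and Foxo3 are switched off by the kinase Akt, which phosphorylates them so that 14-3-3 proteins hold them in the cytoplasm. When active they drive genes of naive T cells such as Klf2 and Il7r, and in Treg development they activate the Foxp3 gene itself.

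The promoters of the genes are shown first, because 2 of the 25 regions overlap one. RefSeq (GRCm38.p6, whose chromosomes match mm10) gives Foxp1 3 annotated starts in the promoter table, numbered here from the most upstream, and Foxo1 and Foxo3 1 each. Each window runs 5′ to 3′ on the gene's strand, from 250 bases before to 50 after the start. Capitals mark the bases inside a listed region. Start 2 of Foxp1 (chr6:99266466-99266765, minus strand) and the start of Foxo1 (chr3:52268087-52268386, plus strand) have such bases, while starts 1 (chr6:99520944-99521243) and 3 (chr6:99028249-99028548) of Foxp1, both on the minus strand, are shown for contrast.
Foxp1 start 1: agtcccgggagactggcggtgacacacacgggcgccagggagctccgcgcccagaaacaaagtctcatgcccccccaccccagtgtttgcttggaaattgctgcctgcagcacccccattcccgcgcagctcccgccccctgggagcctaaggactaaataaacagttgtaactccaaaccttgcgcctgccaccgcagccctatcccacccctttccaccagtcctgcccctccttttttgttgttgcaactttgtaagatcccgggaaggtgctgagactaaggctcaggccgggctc
Foxp1 start 2: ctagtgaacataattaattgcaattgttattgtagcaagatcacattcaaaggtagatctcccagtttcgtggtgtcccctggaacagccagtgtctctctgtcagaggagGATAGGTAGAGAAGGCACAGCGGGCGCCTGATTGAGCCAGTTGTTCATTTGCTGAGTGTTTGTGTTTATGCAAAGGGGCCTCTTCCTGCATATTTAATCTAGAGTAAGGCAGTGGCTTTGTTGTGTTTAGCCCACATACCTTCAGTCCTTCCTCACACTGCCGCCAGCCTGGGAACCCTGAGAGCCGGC
Foxp1 start 3: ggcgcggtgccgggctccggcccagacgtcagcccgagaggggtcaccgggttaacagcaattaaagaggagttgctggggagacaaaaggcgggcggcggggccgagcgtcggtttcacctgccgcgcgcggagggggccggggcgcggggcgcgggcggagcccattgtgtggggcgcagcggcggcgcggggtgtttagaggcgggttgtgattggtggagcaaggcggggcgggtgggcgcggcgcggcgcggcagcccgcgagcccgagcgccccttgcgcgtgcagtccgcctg
Foxo1 start 1: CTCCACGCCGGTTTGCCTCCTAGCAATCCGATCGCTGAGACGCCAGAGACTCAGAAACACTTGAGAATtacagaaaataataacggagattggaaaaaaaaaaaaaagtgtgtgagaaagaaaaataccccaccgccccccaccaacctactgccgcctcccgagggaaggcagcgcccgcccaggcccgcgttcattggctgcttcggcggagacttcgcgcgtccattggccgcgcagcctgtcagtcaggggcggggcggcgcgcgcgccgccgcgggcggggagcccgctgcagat

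The region at start 2 of Foxp1 covers 189 of the 300 bases of its window, including the start itself. The region at Foxo1 covers 68 of 300 bases, all of them upstream of the start. Of the 25 regions, 2 had their centre within 1 kb of an annotated start of a protein-coding gene, against 33.6% of all distinct regions. Over 21262 promoter windows of protein-coding genes in the table, 29.2% overlapped a listed region. Start 2 of Foxp1 is poorer in G and C, at 48.7%, than start 1 (60.3%) and start 3 (75.3%) of the same gene, against a median of 56.3% over all windows. It holds 5 CG dinucleotides, against 13 at start 1 and 44 at start 3. Foxo1 had 61.3% G and C.

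Short motifs were searched in these windows on both strands, each as fixed letters. The Ets motif AGGAAG stood on the opposite strand at positions 193 and 259 of the start 2 window, counted from its first base, both inside the listed region; 34.4% of all windows hold this motif. The Tcf motif CTTTGA stood at position 47 of the same window, outside the region, on the opposite strand (14.4% of all windows). The forkhead letters TGTTTAC were in none of the windows of the 3 genes (3.01% of all windows). Shortened to TGTTTA, a form added after the sequences were seen, they stood in the start 2 window at positions 174 and 235, both inside the region, and at 1 position each in the windows of starts 1 and 3 (11.5% of all windows). The Runx letters TGTGGTT (4.71%), the AP-1 letters TGANTCA (6.99%) and the Bcl11 letters TGACCA (12.5%) were in none of the windows of the 3 genes. Every TGTTTAC is also a TGTTTA, and the other motifs do not contain one another. A match describes letters and is not shown to be a binding site.

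Foxp1 carried more regions than any other of the 11013 protein-coding genes with at least 1 region, whose median was 1. The gene (chr6:98925342-99522746) is 597 kb long, and all 18 regions lay inside it, at 3.01 regions per 100 kb. Its rank is by count and not by density. Per 100 kb of gene length, Foxo1 had 4.89 assigned regions and Foxo3 had 3.16. These values include regions outside the gene, 2 of 4 at Foxo1 and 1 of 3 at Foxo3. They are therefore not densities inside the gene, as the value of Foxp1 is. Much shorter genes came near the count of Foxp1: Satb1, of 97 kb, had 15 regions, and Ubac2, of 142 kb, had 13. Their counts can include regions outside the gene, up to 100 kb away. Over all distinct regions, 60.4% had their centre inside a protein-coding gene. The 226 protein-coding genes of at least 500 kb had a median of 0 regions, and the next highest of them after Foxp1, Rabgap1l, had 11. The regions of Foxp1 stood in 3 groups separated by more than 50 kb, a grouping made after the positions were seen.

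The comparison of Foxp3 in Bcl11b-KO and WT Treg cells asks which Foxp3 sites are listed when Bcl11b is missing. At Foxp1, 5 Foxp3 regions were listed as common to Bcl11b-KO and WT Treg cells, 12 were specific to WT Treg cells and none was specific to Bcl11b-KO cells. The WT-specific regions were thus 70.6% of the 17 on the WT side, where 31.3% of all regions on that side (4815 of 15365) were WT-specific, and 80.1% of all distinct regions are listed in this comparison. On the Bcl11b-KO side, 17.9% of all regions were KO-specific. Since Foxp1 was picked with this count known, setting it beside all regions is no test.

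The 3 groups at Foxp1, drawn after the positions were seen, differed in how many of their regions were WT-specific. This difference was not tested. The group downstream of start 1 held 6 regions within 20.8 kb, with centres 79.7 to 100 kb from that start, and all 6 were WT-specific. They were chr6:99441198-99441417, chr6:99435281-99435556, chr6:99433115-99433453, chr6:99429077-99429296, chr6:99426898-99427117 and chr6:99420662-99420881. Start 1 itself had no region nearer than 79.7 kb.

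The group around start 2 held 8 regions within 33.8 kb, of which 3 were common to Bcl11b-KO and WT, 4 were WT-specific and 1 was not listed for Foxp3. The WT-specific ones were the region at the start (chr6:99266435-99266654, centre 29 bases upstream) and 3 regions upstream of it, at 8.38 kb (chr6:99274786-99275005), 9.26 kb (chr6:99275665-99275884) and 17.0 kb (chr6:99283441-99283660). The common ones lay 3.51 kb upstream (chr6:99269887-99270162) and 4.93 and 16.5 kb downstream (chr6:99261450-99261725 and chr6:99249864-99250139). Within this group the WT-specific regions were thus at the start and upstream of it, and both regions downstream that are listed for Foxp3 were common.

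The group around start 3 held 4 regions within 18.1 kb, of which 2 were common and 2 WT-specific. The common regions were nearest to the start, 3.14 kb upstream (chr6:99031303-99031578) and 2.02 kb downstream (chr6:99026082-99026470). The WT-specific ones lay further downstream, at 4.49 kb (chr6:99023700-99023919) and 14.7 kb (chr6:99013476-99013788).

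**Figure D1:**
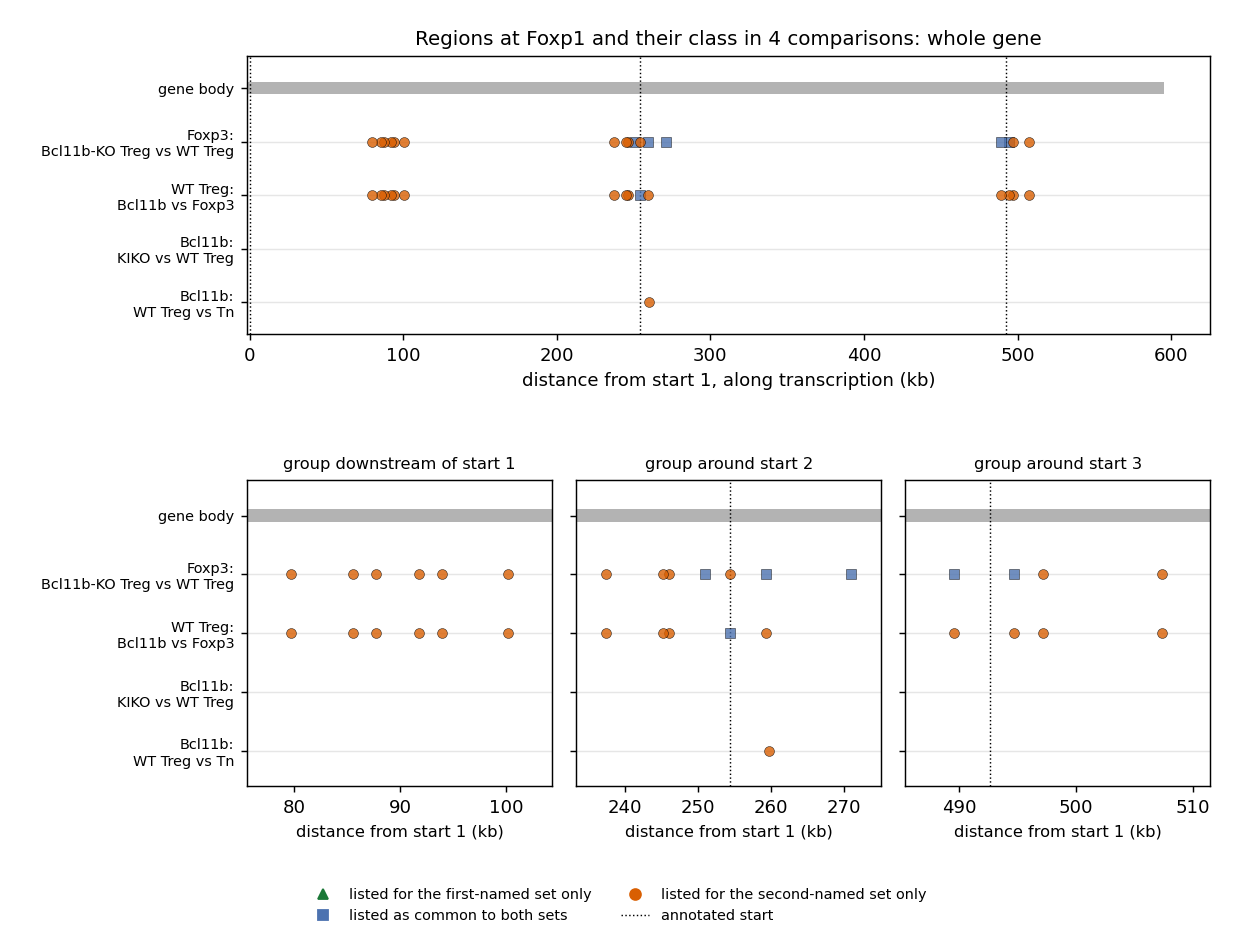
Regions at Foxp1 by distance from start 1 along transcription (x axis, kb), with 1 row for each comparison and 1 marker for each region at its centre; marker shape and colour give the class, dotted lines the annotated starts, and the lower panels enlarge the 3 groups of regions. The 6 regions 79.7 to 100 kb downstream of start 1 are all listed for WT Foxp3 only, and common regions stand in the other 2 groups.

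Region widths differed between the classes at Foxp1. In the lists each set has a width that most of its specific regions share, 276 bp for Foxp3 in Bcl11b-KO Treg cells and 220 bp for Foxp3 in WT Treg cells. Of the 12 WT-specific regions of Foxp1, 9 were 220 bp wide, and of the 5 common regions, 4 were 276 bp wide and none 220 bp. Over the series, 220 bp was the width of 67.9% of WT-specific and 23.6% of common regions, and 276 bp that of 30.1% of common regions. The WT-specific region chr6:99435281-99435556 is an exception, with the 276 bp width, which 6.4% of all WT-specific regions have.

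The common regions were also looked up in the other Foxp3 comparison. Of the 5 common regions at Foxp1, 2 (chr6:99249864-99250139 and chr6:99269887-99270162, both 276 bp) were absent from the WT Foxp3 side of the comparison of Bcl11b with Foxp3. Over the series this held for 18.6% of all 10550 common regions, for 56.8% of the 3180 common regions of 276 bp and for none of the 2493 common regions of 220 bp. Counted only over the 15 regions of Foxp1 that both comparisons list for WT Foxp3, 3 were common to Bcl11b-KO and WT cells and 12 were WT-specific (80.0%), where the share over all such regions was 35.8%.

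The comparison of Bcl11b with Foxp3 in WT Treg cells asks how far the 2 factors share sites. Foxp1 had no region for Bcl11b only, 1 shared region and 14 for Foxp3 only, and 3 of its regions were not listed. Over the series, 34.5% of the regions on the Bcl11b side were Bcl11b-only, 66.8% of those on the Foxp3 side were Foxp3-only, and 75.8% of all distinct regions are listed. The shared region was the one at start 2. It was not listed for Treg Bcl11b in the comparisons with KIKO or Tn cells, and it has the 220 bp width of WT Foxp3 regions. Of all 711 shared regions of 220 bp, 95.2% were likewise on the Treg side of neither comparison, against 37.5% of all 4738 shared regions of any width, so for Foxp1 only this comparison places Treg Bcl11b there. Of the 14 Foxp3-only regions, 11 were WT-specific against Bcl11b-KO cells (78.6%), where 38.1% of all Foxp3-only regions in both comparisons were.

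The comparisons of Bcl11b between cells held little at Foxp1. No region of Foxp1 was listed in the comparison of KIKO with WT Treg cells, in which 25.9% of all distinct regions are listed. In the comparison of WT Treg with Tn cells, which lists 32.8% of all distinct regions, 1 region of Foxp1 was listed, chr6:99261115-99261340, which was Tn-specific, as were 13.9% of all regions on the Tn side. It lies 5.29 kb downstream of start 2. A gap of 109 bases separates it from the Foxp3 region chr6:99261450-99261725, which is common to Bcl11b-KO and WT Treg cells.

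Foxo1 had 4 regions within 16.2 kb around its start, and Bcl11b was listed at none of them. The gene (chr3:52268337-52350109) is 81.8 kb long, and its regions lay 5.66 kb upstream (chr3:52262569-52262788), 293 bases upstream (chr3:52267935-52268154), 4.34 kb downstream (chr3:52272543-52272818) and 10.3 kb downstream (chr3:52278403-52278782). Both regions inside the gene were common to Bcl11b-KO and WT Treg cells, and both upstream of the start, with the promoter region whose bases are in capitals above, were WT-specific. The WT-specific regions were each 220 bp wide, and the common ones 276 and 380 bp. All 4 were Foxp3-only against Bcl11b, as were 66.8% of all regions on the Foxp3 side. None was listed in the comparisons with KIKO or Tn cells, which list 25.9% and 32.8% of all distinct regions, so 4 regions do not set Foxo1 apart.

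Foxo3 had 3 regions within 9.05 kb, and all 3 were common to Bcl11b-KO and WT Treg cells for Foxp3. In the gene (chr10:42181845-42276695, 94.9 kb), 2 regions lay 5.82 kb (chr10:42270740-42271015) and 7.37 kb (chr10:42269217-42269436) downstream of the start. The region 5.82 kb downstream, 276 bp wide, was absent from the WT Foxp3 side when the 2 factors were compared.

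The remaining region of Foxo3 was the widest of the 25, at 496 bp, and lay 1.32 kb upstream of the start (chr10:42277767-42278262). It was the only one of the 25 listed for Treg Bcl11b in the comparisons between cells. There it was WT-specific against KIKO cells, as were 62.3% of all Bcl11b regions on that WT side (3.05% on the KIKO side were KIKO-specific), and common to Treg and Tn cells, where 31.1% of all regions on the Treg side were Treg-specific. Of Treg Bcl11b regions common with Tn cells and listed against KIKO, 52.8% were WT-specific. The lists conflict at this region, since the comparison of Bcl11b with Foxp3 in WT Treg cells gives it as Foxp3-only. Such a conflict was found for 2.26% (120 of 5301) of the Treg Bcl11b regions of the Tn and KIKO comparisons that are also listed with Foxp3.

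**Figure D2:**
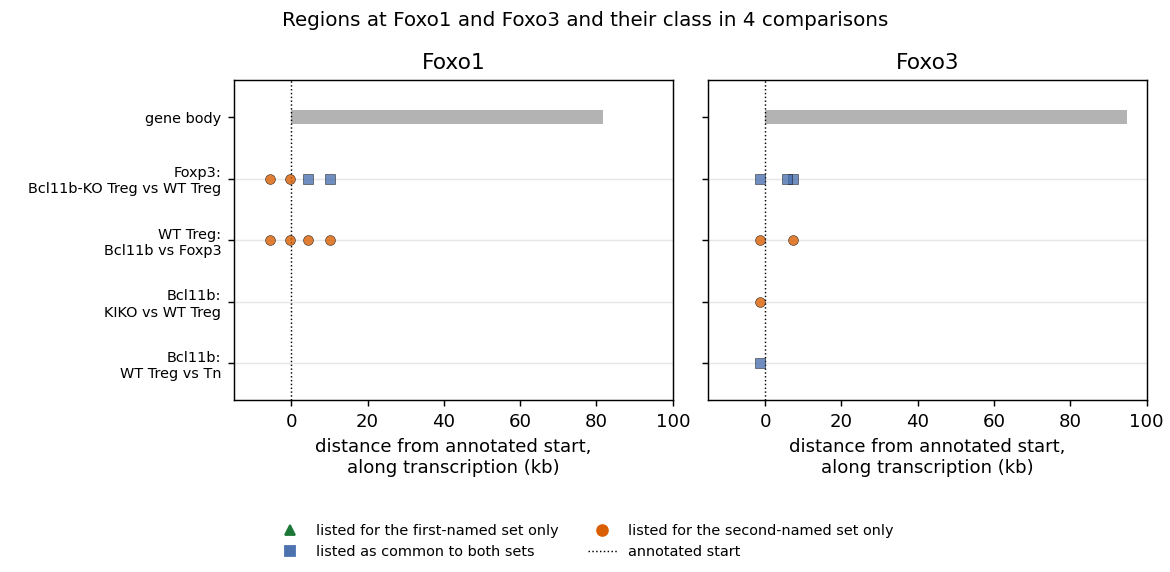
Regions at Foxo1 (left) and Foxo3 (right) by distance from the annotated start along transcription (x axis, kb), with 1 row for each comparison and the class given by marker shape and colour. At Foxo1 the 2 upstream regions are listed for WT Foxp3 only and the 2 inside the gene as common; at Foxo3 all 3 Foxp3 regions are common, and the region 1.32 kb upstream is also listed for Bcl11b.

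Across the 3 genes the share of WT-specific Foxp3 regions ran from 12 of 17 at Foxp1 through 2 of 4 at Foxo1 to 0 of 3 at Foxo3. Counts of 4 and 3 regions cannot place Foxo1 and Foxo3 apart from the 31.3% of all regions. Of the 10 regions of the 3 genes on the Bcl11b-KO side none was KO-specific, where 17.9% of all regions on that side were. A count of 10 is too small to set the 3 genes apart from all regions here. The sides for Bcl11b held even fewer of their regions, too few to read. None was on the KIKO side. On the Treg side against Tn there was 1, which was common (31.1% of all were Treg-specific). On the Bcl11b side against Foxp3 there was 1, which was shared (34.5% of all were Bcl11b-only). Of the 25, 3 were listed for Bcl11b in any cell: the Foxp1 region at start 2, the Tn-specific Foxp1 region and the upstream Foxo3 region. The region farthest from its gene lay 5.66 kb away, at Foxo1, and the nearest region beyond the limit lay 133 kb from Foxp1, inside Eif4e3.

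**Figure D3:**
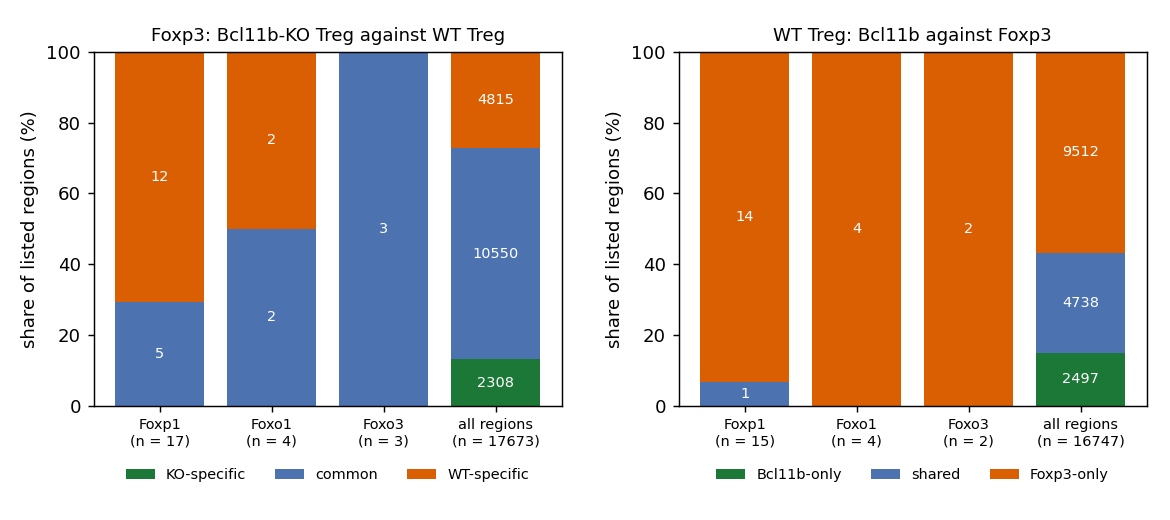
Share of listed regions (y axis, %) in each class for Foxp3 in Bcl11b-KO against WT Treg cells (left) and for Bcl11b against Foxp3 in WT Treg cells (right), at each gene and over all regions; numbers in the bars are regions. WT-specific regions are 12 of 17 at Foxp1, 2 of 4 at Foxo1 and 0 of 3 at Foxo3.

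Of all genes, none had more WT-specific Foxp3 regions than Foxp1, 214 had more than Foxo1, and 7294 of 11013 had none, as Foxo3 did. In common regions the order differed: 55 genes had more than the 5 of Foxp1, and 293 had more than the 3 of Foxo3. Of the 12 genes with at least 10 Foxp3 regions on the WT side, the share of WT-specific ones ran from 18.2 to 72.7% with a median of 45.0%. Ubac2 had the highest share and Foxp1, at 70.6%, the next.

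**Figure D4:**
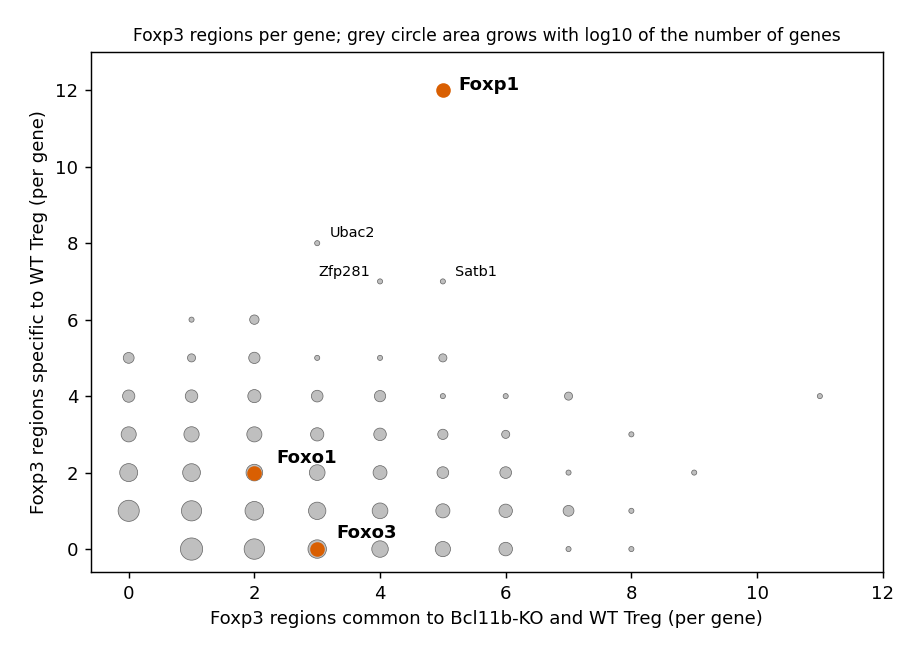
Number of Foxp3 regions common to Bcl11b-KO and WT Treg cells (x axis) and specific to WT Treg cells (y axis) for each protein-coding gene with at least 1 of either; the area of a grey circle grows with the log10 of the number of genes at that point. Foxp1, with 5 and 12, stands above all other genes, the next being Ubac2 with 3 and 8.

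The genes most like each member were found from the Bray-Curtis similarity of their 12 region counts, 3 classes in each of 4 comparisons, where 1 means identical counts. Names that start with Gm and a digit or end in Rik were passed over. Ubac2 (0.74), Zfp281 (0.72) and Satb1 (0.72) were nearest to Foxp1 among the 710 remaining genes with at least 5 regions. They had 3, 4 and 5 common and 8, 7 and 7 WT-specific Foxp3 regions, and 9, 9 and 10 Foxp3-only regions. Satb1 encodes a chromatin organiser of T cells. For Foxo1 and Foxo3 the candidates were the 2545 remaining genes with at least 3 regions. Foxo1 had the same 12 counts as 8 of these genes, among them Bcl2l15, Bmp2k and Bzw1. For Foxo3, 7 genes tied at 0.93, among them Abracl, Arhgap9 and Bcl3. With so few regions a tie at Foxo1 or Foxo3 carries little.

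Of the 41 other forkhead genes, 18 had a region, with 32 regions in all and a median of 1 among those with any; over all protein-coding genes 50.3% had one. For Foxp3 these regions were 5 KO-specific, 14 common and 4 WT-specific, so that 26.3% of the 19 on the Bcl11b-KO side were KO-specific, against 17.9% of all regions on that side. On the WT side 22.2% of the 18 were WT-specific, against 31.3% of all. Counts of 19 and 18 regions are too small to set these genes apart from all regions. Foxn3 had the most, with 2 KO-specific, 2 common and 1 WT-specific region. Foxp4, a close relative of Foxp1, had 1 KO-specific and 2 common regions and no WT-specific one. Foxp2, another relative, had 1 common Foxp3 region and 2 Bcl11b-only regions. Foxj2, Foxj3 and Foxk1 had 2 regions each, of which 1, 2 and 1 were common for Foxp3 and 1, 0 and 0 WT-specific.

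The PI3K and Akt pathway controls the Foxo factors. Of 36 listed genes of PI3K, Akt and Foxo signalling, 29 had a region, against 50.3% of all protein-coding genes, with 98 regions in all. For Foxp3 they were 11 KO-specific, 49 common and 20 WT-specific, so that 18.3% of the 60 on the Bcl11b-KO side were KO-specific, near the 17.9% of all regions, and 29.0% of the 69 on the WT side were WT-specific, near the 31.3% of all. Pik3r1, which encodes a regulatory subunit of the kinase, had 11 regions, with 4 common and 4 WT-specific for Foxp3. Pik3cd, the gene of the lymphocyte catalytic subunit, had 8 regions, with 1 KO-specific, 4 common and none WT-specific for Foxp3. Pdpk1, the kinase that activates Akt, had 3 common and 1 WT-specific region. Inpp5d, a phosphatase gene that opposes the pathway, had 3 common and 1 WT-specific region, and the inhibitor gene Pik3ip1 had 3 common and none WT-specific. Pik3r5, which encodes another regulatory subunit, had 3 KO-specific, 1 common and 2 WT-specific regions.

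Of 28 genes that Foxo factors or Foxp1 are known to regulate in lymphocytes, 27 had a region, against 50.3% of all protein-coding genes. They held 150 regions in all with a median of 6, against a median of 1 over all genes with a region. For Foxp3 they were 18 KO-specific, 71 common and 46 WT-specific, so that 20.2% of the 89 on the Bcl11b-KO side were KO-specific, against 17.9% of all regions on that side. Of the 117 on the WT side 39.3% were WT-specific, against 31.3% of all. The list holds Satb1 and other genes already known from these lists to have many WT-specific regions, and it is therefore no independent count. Beside Satb1, Ccr7, the gene of a lymph node homing receptor, had 2 common and 5 WT-specific regions, and Itga4, an integrin gene, had 1 KO-specific, 2 common and 4 WT-specific. Bach2 and Lef1, transcription factor genes of naive T cells, had 4 common and 2 WT-specific regions each, and Bach2 had 1 KO-specific region. Fasl, a death ligand gene, had 2 KO-specific, 2 common and 1 WT-specific region.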

How the data were processed

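The submitters' processing notes name HOMER 4.10.1, HISAT2 2.1.0, SAMtools 1.3, deepTools, FastQC, cutadapt 1.12 and Trim Galore 0.4.2 and the build mm10, with neither role nor setting. Deposited by the authors were 12 position lists with chromosome, start and end. The rule for specific and common regions, the threshold of the calls and the pooling of replicates are not stated in the labels. Starts were counted from 1. Repeated rows (127) were dropped, and 25 regions in 2 classes of 1 comparison, none at the 3 genes, were left out of that comparison. No regions overlap, so matching by identity equals any overlap. Genes and promoters came from RefSeq (GRCm38.p6, 21883 protein-coding genes, without exons), and 21848 regions had a gene; ties went to the shorter gene. All 3 members matched by symbol. The members, lists and naming rule were chosen with earlier results of these data known. Named list genes are the 6 with the most regions in each list. Gene assignment was tested on simulated positions. Counts have no test. Python 3.11.15, numpy 2.4.6, pandas 2.3.3 and matplotlib 3.10.9 were used. The description of WT Treg Bcl11b replicate 3 mentions no list, so its use is unknown. Some genes of the lists are not reported here.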

Additional observations from a re-analysis of the deposited data

How the results depend on the processing

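Over 7 alternatives and 13 counts, 79 of 91 values stayed within 1.5 times the reported count and 12 moved further. The alternatives were a limit of 20 kb, gene bodies with 10 kb to each side, the nearest gene of any type, merging regions within 500 bp, only regions wider than 276 bp, counting regions in 2 classes in both, and counting every row. With the widest regions only, a filter that leaves fewer regions by construction, Foxp1 had 3 regions, Foxo1 had 1 and Foxo3 had 1. Most specific regions of a set share 1 width, so this filter selects by width and does not measure how strict a call is. Then 5 regions of the 3 genes were Foxp3-only against Bcl11b and 2 were WT-specific against Bcl11b-KO cells, both at Foxp1 beside 1 common region. With genes of any type, Foxo3 kept 1 region, because Gm38485 took 2. Merging left 17 regions at Foxp1. No paired analysis was possible because the lists hold no value per replicate, and for the same reason no replicate could be left out. No score allowed a stricter threshold, and depth is unknown.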

Other observations

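The next listed Foxp3 regions beyond Foxp1 were also WT-specific, though far from it. Along chromosome 6, 11 neighbouring regions of the comparison with Bcl11b-KO cells were all WT-specific, from 99274786 to 99658953. Of these, 9 were at Foxp1 and 2 at its neighbour Eif4e3, a gene of the translation initiation factor eIF4E family. A run follows the order of listed regions, whatever their distance, and is no continuous block. A gap of 137 kb lay inside the Foxp1 part. The last Foxp1 region ended at 99441417, and the next listed region began at 99655499. On the other side of the gene, a run of 4 over 1800 kb joined 2 Foxp1 regions with Mitf and Arl6ip5. The series had 3310 such runs, 70.2% of them of 1 region, and none was longer than 11. The other run of 11 was on chromosome 5, from 86065526 to 86804468, over 8 genes that include Stap1 and Uba6. Eif4e3 had 4 regions in all, 2 common to Bcl11b-KO and WT Treg cells and 2 WT-specific, and all 4 were Foxp3-only against Bcl11b. At Foxo1 the longest run was of 2 regions, both upstream of the start. These runs were looked for after the positions were seen and were not tested.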
